A study of Homo sapiens with 36 samples.

Results

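The BH3-only genes encode the part of the BCL2 family that starts death through the mitochondria. The 8 genes BCL2L11, BBC3, PMAIP1, BID, BIK, BMF, BAD and HRK were taken by symbol from a list of 37549 genes with counts. They were followed in 3 human B-cell leukaemia lines, MEC1, whose p53 is mutated, and JVM2 and EHEB, whose p53 is wild-type. Each line had received the vehicle DMSO, 50 µM of the purine analogue fludarabine, 5 µM of ibrutinib, an inhibitor of Bruton tyrosine kinase, or 10 µM of idelalisib, an inhibitor of PI3 kinase δ. MEC1 cells were exposed for 48 h, JVM2 cells for 72 h and EHEB cells for 96 h, so the line cannot be told apart from the time of exposure. There were 3 libraries in each of the 12 groups, 36 in all, and each line is a single established population. A library is named here by its line and its number, such as MEC1_37. The libraries with ibrutinib and idelalisib carry number series of their own without a DMSO library, and what that may add to those comparisons cannot be told apart from the drugs. The labels do not say whether the 3 libraries of a group came from separate cultures, so p-values measure the spread between these libraries.

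As background, a BH3-only protein carries a short helix, the BH3 domain, that fits into a groove of the survival proteins BCL2, BCL-XL and MCL1. When survival proteins are occupied, BAX and BAK1 open the outer mitochondrial membrane and cytochrome c sets off the caspases. BCL2L11 (BIM), BBC3 (PUMA) and BID bind all the main survival proteins and can also activate BAX and BAK1 directly. PMAIP1 (NOXA), BMF, BIK, BAD and HRK each occupy a narrower choice of them. BBC3 and PMAIP1 are textbook targets of p53, and leukaemic B cells are known to lean on BCL2 for survival.

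Library totals lay between 26590705 and 53538925 counts, so that a single count corresponded to 0.019 to 0.036 CPM, the unit of a level once library totals are made equal. All 6 B-cell markers examined were counted in all 36 libraries, with summed levels of 640 to 1750 CPM. The T-cell markers CD3D and CD3G and the myeloid markers CD14, LYZ and MPO never exceeded 0.403 CPM, whereas CD2 reached 12.1, CD3E 5.55 and CD247 3.15 CPM, and the myeloid marker CSF1R was counted in every library at up to 5.7 CPM. Levels below are CPM on TMM-scaled library sizes. Fold changes are log2 values of edgeR's quasi-likelihood test with a standard error (SE), and a gene is called changed at a Benjamini-Hochberg adjusted p under 0.05 over all genes tested in that line.

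The genes lie on 7 chromosomes of GRCh38 in the GENCODE release 44 annotation. BBC3 (ENSG00000105327.18) is on the minus strand of chr19:47220822-47232766 and PMAIP1 (ENSG00000141682.12) on the plus strand of chr18:59899996-59904305. BCL2L11 (ENSG00000153094.25) spans chr2:111119378-111168444 and BMF (ENSG00000104081.14) chr15:40087890-40108892. BID (ENSG00000015475.19) and BIK (ENSG00000100290.3) share chromosome 22, at 17734138 to 17774770 and 43110750 to 43129712. BAD (ENSG00000002330.14) lies at chr11:64269830-64284704 and HRK (ENSG00000135116.9) at chr12:116856144-116881441. Whether counting used strand is not given in the sources used here, so reads of a member and of an antisense gene cannot be told apart. Of the overlapping antisense genes, BMF-AS1 had 0 counts in every library. GPR137 lies across BAD and had 467 to 1154 counts, and MIR4435-2HG lies across BCL2L11.

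The promoters of BBC3 and PMAIP1 are shown because both genes are known p53 targets and their responses to fludarabine differed between MEC1 and EHEB. RefSeq promoter windows of 300 bases (GRCh38.p14, 250 before to 50 after the annotated start) were searched for the p53 half-site pair without a spacer, and the best match of 20 bases is printed with matching bases in capitals.
PMAIP1: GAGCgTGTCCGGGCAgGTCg
BBC3: AGtCAAGTTTGAGaAgtCTg
The PMAIP1 match is at chr18:59899811-59899830 on the plus strand and differed from the consensus at 3 positions. Only 5.2% of the 35116 promoters in the table held a match this close. The BBC3 match is at chr19:47232821-47232840 on the minus strand and differed at 5 positions, as 70.5% of promoters did or did better. The best matches of BCL2L11, BID, BMF and BAD also differed at 5 positions and that of HRK at 6, while BIK is named only. A match is a description of letters, and the windows hold only part of each gene.

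In DMSO-treated cells PMAIP1 was the member with the highest level per length in each line, as the plot of levels per length shows. It reached 117 ± 2.76 CPM per kb of the canonical transcript in MEC1, 139 ± 35.7 in JVM2 and 79.3 ± 3.83 in EHEB (SD, n = 3). BMF, BAD, BBC3, BID and BCL2L11 followed at 2.9 to 38.3 CPM per kb. BIK reached 0.372 in MEC1 and 0.514 in EHEB and had no count in JVM2, and HRK had none in any DMSO library.

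The lines differed in these levels before any drug. Between DMSO-treated MEC1 and JVM2, 5 of 7 members tested were called, where 63.8% of all genes tested were. Between MEC1 and EHEB 5 of 7 were called with 67.4% of all genes, and between JVM2 and EHEB 6 of 7 with 59.6%. Both counts against JVM2 include BIK, which had no count in JVM2 with DMSO, and no difference is read from those calls. BBC3, BMF and BAD were highest in JVM2. BBC3 and BMF were lowest in MEC1, where BMF stood 1.95 log2 units below JVM2 (SE 0.0597, adjusted p = 1.25e-08) and 0.74 below EHEB (SE 0.0581, adjusted p = 3.85e-06). BID was higher in MEC1 than in JVM2 (0.83, SE 0.134) and EHEB (1.04, SE 0.134). BCL2L11 was higher in EHEB than in MEC1, which differed from EHEB by −2.21 (SE 0.546) and by −1.41 without the EHEB library with the highest value, EHEB_135. JVM2 differed from EHEB by −2.35 (SE 0.55), and by −1.55 without EHEB_135. PMAIP1 was lower in EHEB than in both other lines, and its difference from MEC1 of 0.53 (adjusted p = 0.016) had an adjusted p of 0.0538 without the same library.

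**Figure D1:**
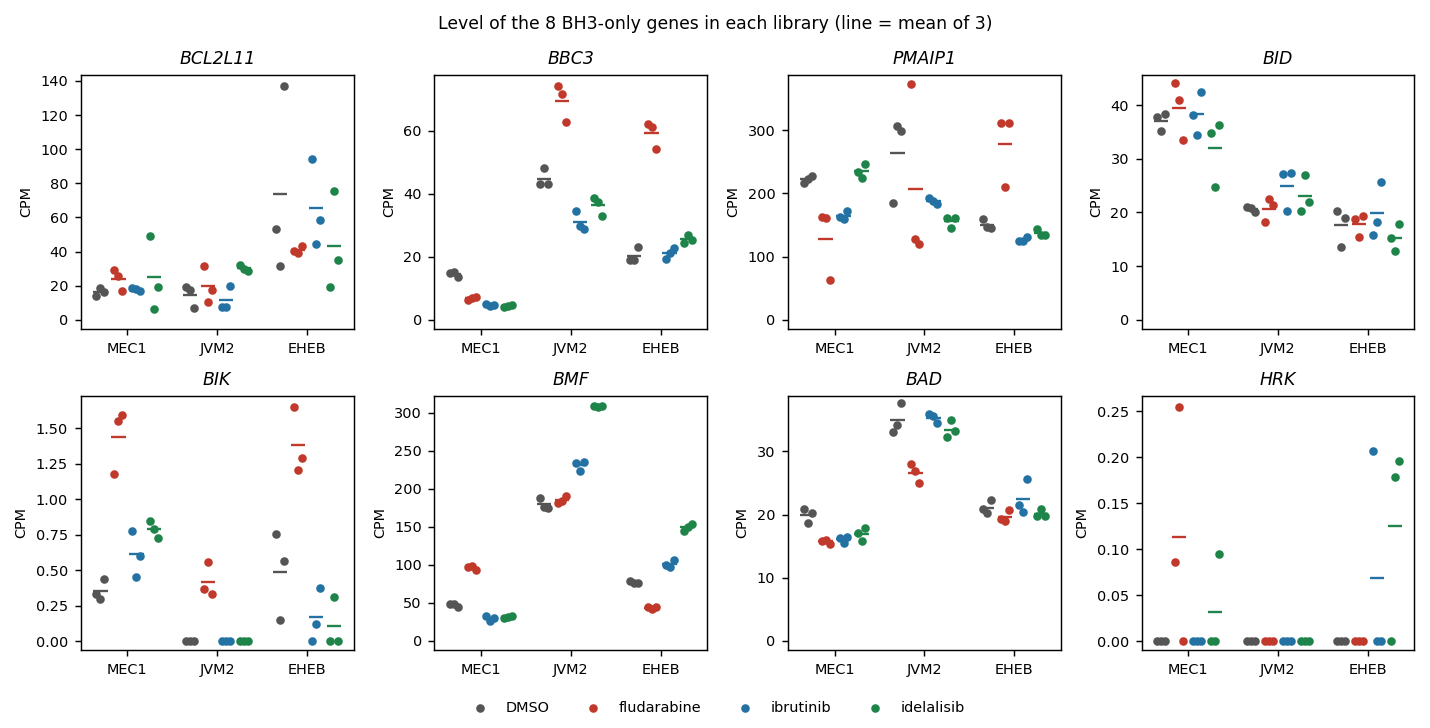
CPM of the 8 members in each of the 36 libraries (points) by line and treatment, with the mean of 3 as a line; each panel has its own linear axis. BBC3 rises with fludarabine in JVM2 and EHEB and falls in MEC1, BMF does the reverse between MEC1 and EHEB, and BCL2L11 and PMAIP1 show single libraries far from the others of their group.

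Fludarabine changed BBC3 in opposite directions in the line with mutated p53 and in the lines with wild-type p53. In MEC1 the 3 DMSO libraries held 14.7, 15.4 and 13.5 CPM and the fludarabine libraries 6.45, 6.96 and 7.12. In JVM2 BBC3 went from 43.2, 48.2 and 43.1 CPM with DMSO to 74.4, 71.7 and 62.8 with fludarabine. In EHEB it went from 19.1, 18.9 and 23.1 CPM to 62.1, 61.3 and 54.3. Fludarabine and DMSO libraries did not overlap in any line. BBC3 fell by 1.12 on the log2 scale in MEC1 (SE 0.0949, adjusted p = 3.98e-06), and rose by 0.65 in JVM2 (SE 0.0915, adjusted p = 0.000157) and 1.55 in EHEB (SE 0.1, adjusted p = 5.28e-07). The effect of fludarabine in MEC1 was lower than that in JVM2 by 1.73 (SE 0.131, adjusted p = 9.73e-08) and lower than that in EHEB by 2.60 (SE 0.132, adjusted p = 2.13e-09). The rise was also smaller in JVM2 than in EHEB (−0.87, SE 0.127, adjusted p = 0.000129).

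The kinase inhibitors lowered BBC3 most in MEC1. Ibrutinib libraries of MEC1 held 4.99, 4.55 and 4.71 CPM and idelalisib libraries 4.2, 4.39 and 4.77, all under the 3 fludarabine libraries. These are falls of 1.57 (SE 0.0958) and 1.64 (SE 0.0965) from the same DMSO libraries. In JVM2, BBC3 stood at 34.7, 29.7 and 29 CPM with ibrutinib, a fall of 0.54 (SE 0.0919, adjusted p = 0.00139), and every ibrutinib library lay below every DMSO library. With idelalisib JVM2 held 38.8, 37.3 and 33.1 CPM, a difference of −0.30 (SE 0.0916, adjusted p = 0.0195) whose adjusted p was 0.072 without the DMSO library JVM2_86, 0.0868 without JVM2_240 and 0.0655 under library size scaling. In EHEB, BBC3 stood at 19.5, 21.3 and 22.9 CPM with ibrutinib, among the DMSO values (0.06, SE 0.099, adjusted p = 0.745). With idelalisib EHEB held 24.5, 27.1 and 25.5 CPM, all above DMSO by a small margin (0.33, SE 0.099, adjusted p = 0.0262). That call was lost when EHEB_133 or EHEB_134 (DMSO) or EHEB_287 or EHEB_288 (idelalisib) was left out, at adjusted p values of 0.0519 to 0.0892. The differences between lines were called for BBC3 in all 9 tests of a drug effect. The smallest, ibrutinib in JVM2 against EHEB (−0.58, SE 0.134, adjusted p = 0.0101), had an adjusted p of 0.0513 without the ibrutinib library JVM2_234.

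BMF, whose protein is held at the motor complexes of the cytoskeleton through DYNLL2, moved with fludarabine in the opposite sense to BBC3 in MEC1 and EHEB. In MEC1 it went from 48.5, 48.6 and 44 CPM with DMSO to 96.7, 99 and 93.5 with fludarabine, a rise of 1.00 (SE 0.0782, adjusted p = 2.23e-06). In EHEB it went from 79.3, 76.5 and 75.7 CPM to 45.1, 42 and 45, a fall of 0.80 (SE 0.0534, adjusted p = 6.54e-07). In JVM2 the DMSO libraries at 188, 177 and 175 CPM and the fludarabine libraries at 181.8, 183.98 and 191.2 overlapped (0.06, SE 0.0419, adjusted p = 0.288), while library size scaling gave 0.26 (adjusted p = 0.0034) and a stricter filter 0.12 (adjusted p = 0.0442). The effect in MEC1 was above that in EHEB by 1.87 (SE 0.0762, adjusted p = 4.32e-10) and above that in JVM2 by 0.97 (SE 0.0754, adjusted p = 1.28e-07).

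With the kinase inhibitors the lines parted the other way for BMF. In MEC1 it fell to 33.1, 25.8 and 30.2 CPM with ibrutinib (−0.62, SE 0.0781) and to 30, 31.3 and 32.7 with idelalisib (−0.52, SE 0.0781). In JVM2 it rose to 234.1, 224 and 236 CPM with ibrutinib (0.35, SE 0.0419) and to 308, 308 and 309 with idelalisib (0.77, SE 0.0421). In EHEB it rose to 100.5, 97.1 and 107 CPM (0.39, SE 0.0529) and to 145, 150 and 154 (0.95, SE 0.0532). None of these 6 groups overlapped the DMSO libraries of its line. MEC1 differed from both other lines with either inhibitor, by −0.996 to −1.52, and JVM2 and EHEB did not differ by the test with ibrutinib (−0.03, SE 0.1) or idelalisib (−0.16, SE 0.0714, adjusted p = 0.142).

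Set directly against ibrutinib, idelalisib left BMF higher by 0.42 in JVM2 (SE 0.0419, adjusted p = 6.49e-05) and by 0.55 in EHEB (SE 0.0529, adjusted p = 5.6e-05). Both drugs were given at different doses, and these are the only members called between them, 1 of 7 in JVM2 with 18.7% of all genes and 1 of 7 in EHEB with 15.9%. In MEC1 edgeR called 0 of 7 members between the inhibitors, where 15.4% of all genes tested were called. None had an unadjusted p under 0.05 there and DESeq2 and limma-voom also called 0. BMF itself differed by 0.10 in MEC1 (SE 0.0781, adjusted p = 0.5).

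**Figure D2:**
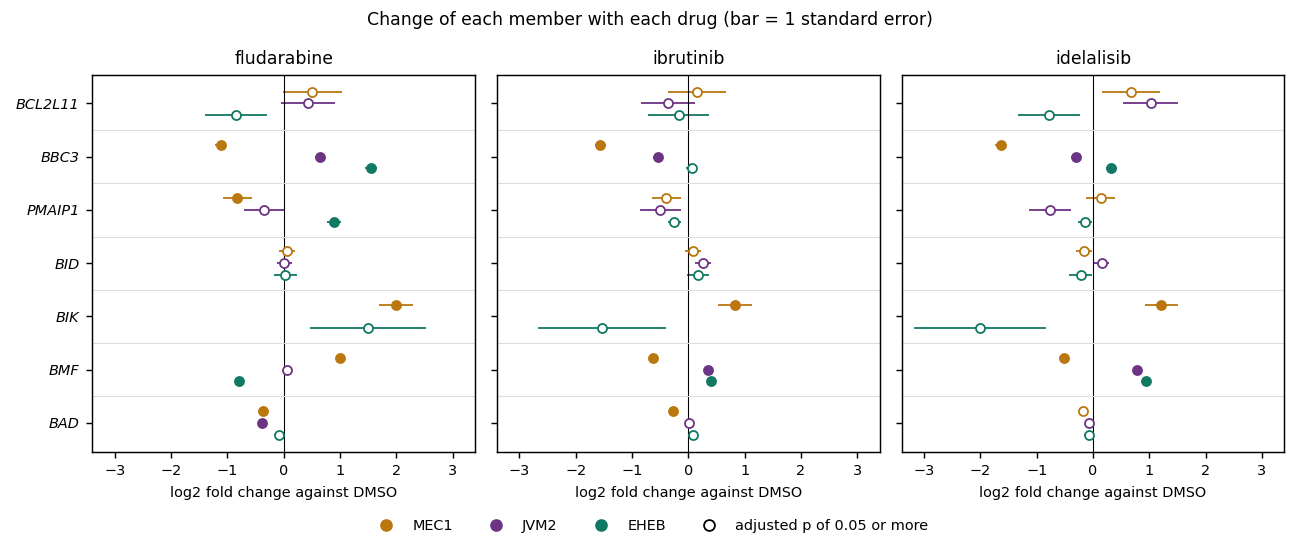
Log2 fold change against DMSO of 7 members with each drug in MEC1, JVM2 and EHEB; bars are 1 SE and open circles have an adjusted p of 0.05 or more. BIK in JVM2 is left out because its DMSO libraries had no counts, and HRK was not tested. BBC3 and BMF lie on opposite sides of 0 in MEC1 and EHEB with fludarabine.

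PMAIP1, whose protein chiefly binds MCL1, rose with fludarabine in EHEB, from 159, 147 and 146 CPM to 312, 210 and 312. That is a rise of 0.90 (SE 0.123, adjusted p = 0.000158), and each treated library lay above each DMSO library. In MEC1 it went from 217, 223 and 227 CPM to 162, 161 and 62.5, with MEC1_48 far below the other two. The fall there was 0.82 (SE 0.261, adjusted p = 0.0241), and without MEC1_48 it was 0.50 (adjusted p = 0.00014). The adjusted p was 0.0515 without the DMSO library MEC1_38, 0.0554 without MEC1_39, 0.0918 under library size scaling and 0.0772 when only the 6 libraries were fitted. In JVM2 the DMSO libraries held 185.2, 306 and 299 CPM and the fludarabine libraries 373, 127 and 120. These overlapped widely (−0.34, SE 0.366, adjusted p = 0.477), and without JVM2_94, the highest, the difference became −1.08 (adjusted p = 0.000786). The effects of fludarabine in MEC1 and EHEB differed by −1.65 (SE 0.556, adjusted p = 0.0362), with adjusted p values of 0.0568 to 0.0732 when any 1 of 9 libraries was left out.

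With ibrutinib PMAIP1 held 162, 159 and 173 CPM in MEC1, 193, 188 and 183 in JVM2 and 125, 125 and 131 in EHEB. With idelalisib it held 235, 224 and 246 CPM in MEC1, 161, 146 and 161 in JVM2 and 143.1, 134.5 and 134.4 in EHEB. None of these 6 differences passed the test, at −0.76 to 0.14 and adjusted p values of 0.119 to 0.67. Each treated library lay below each DMSO library with ibrutinib in MEC1 and EHEB and with idelalisib in JVM2 and EHEB. The share of all genes that separate in this way was not computed, so no fall is read from it. The groups overlapped DMSO with idelalisib in MEC1 and with ibrutinib in JVM2. Fits of only the 6 libraries compared called PMAIP1 lower with ibrutinib in MEC1 (−0.37, adjusted p = 0.00145) and EHEB (−0.23, adjusted p = 0.0332), and with idelalisib in JVM2 (−0.76, adjusted p = 0.0154). The effect of idelalisib was higher in MEC1 than in JVM2 by 0.84 (SE 0.182, adjusted p = 0.00174; 0.136 with all 36 libraries in a single fit). It was lower in JVM2 than in EHEB by 0.60 (SE 0.182, adjusted p = 0.0275; 0.344 with all 36 libraries in a single fit), which was lost when any 1 of 6 libraries was left out, at adjusted p values of 0.0502 to 0.0677.

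BIK, a BH3-only protein of the endoplasmic reticulum, was scarce. Among the lines with counts of it under DMSO, BIK was called higher with fludarabine in MEC1 and not in EHEB. In MEC1 it went from 0.329, 0.298 and 0.434 CPM to 1.18, 1.55 and 1.59, all above DMSO (1.99, SE 0.301, adjusted p = 0.000277; 0.0572 with all 36 libraries in a single fit). It was also higher in MEC1 with ibrutinib, at 0.777, 0.453 and 0.602 CPM (0.83, SE 0.3, adjusted p = 0.04), and with idelalisib, at 0.845, 0.79 and 0.729 (1.22, SE 0.301, adjusted p = 0.00508). The ibrutinib call was lost under 5 of the other settings, DESeq2 and limma-voom among them, and without any 1 of 4 libraries, at adjusted p values of 0.0561 to 0.487. The idelalisib call had an adjusted p of 0.266 with all 36 libraries in a single fit.

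In JVM2, BIK had no count in the 9 libraries with DMSO, ibrutinib or idelalisib, and 0.368, 0.556 and 0.331 CPM with fludarabine, from 55 counts in all. Against 3 counts over the DMSO group, which a count of 0 allows, the 55 counts are 16.4-fold higher, without an error for either count. BIK passed the filter in JVM2 only through its fludarabine libraries. Its test there (adjusted p = 0.00596) is therefore no support of its own. EHEB held 0.756, 0.147 and 0.565 CPM with DMSO and 1.65, 1.21 and 1.29 with fludarabine, without overlap and not called (1.501, SE 1.03, adjusted p = 0.29). With ibrutinib EHEB held 0, 0.123 and 0.374 CPM and with idelalisib 0, 0.313 and 0, differences that were not called. Without EHEB_287, the only idelalisib library of EHEB with counts of BIK, the gene was called lower (adjusted p = 0.0364). That call rests on a group without counts and is no support of its own.

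BAD, a sensitiser controlled mainly by phosphorylation of its protein, moved little, and its called changes against DMSO were all falls. In MEC1 it went from 20.9, 18.7 and 20.3 CPM with DMSO to 15.9, 15.9 and 15.4 with fludarabine (−0.37, SE 0.0751, adjusted p = 0.00192). In JVM2 it went from 33.1, 34.2 and 37.7 CPM to 28, 26.9 and 25.1 (−0.38, SE 0.0639, adjusted p = 0.000509). Treated and DMSO libraries did not overlap in either line, and library size scaling reduced the differences to −0.12 (adjusted p = 0.169) in MEC1 and −0.18 (adjusted p = 0.0136) in JVM2. In EHEB, BAD held 20.8, 20.2 and 22.3 CPM with DMSO and 19.3, 19 and 20.7 with fludarabine, a difference of −0.09 (SE 0.0881) that was not called. Ibrutinib lowered BAD in MEC1 to 16.3, 15.6 and 16.4 CPM (−0.26, SE 0.0747, adjusted p = 0.0127; 0.0526 without the DMSO library MEC1_37). In MEC1 idelalisib left 17, 15.7 and 17.9 CPM (−0.18, SE 0.0748, adjusted p = 0.0603), a difference called under library size scaling (−0.28, adjusted p = 0.00513) and with all 36 libraries in a single fit (−0.24, adjusted p = 0.00818). The kinase inhibitors gave differences of −0.08 to 0.09 in JVM2 and EHEB, none of them called. The effect of ibrutinib on BAD was lower in MEC1 than in EHEB by 0.37 (SE 0.118, adjusted p = 0.0311), with adjusted p values of 0.0606 to 0.0919 when any 1 of 8 libraries was left out and 0.103 without a filter.

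HRK, best known from neurons, had counts in 6 of the 36 libraries, at most 10 counts or 0.254 CPM, and was not tested in any line. Those libraries were MEC1_46 and MEC1_47 (fludarabine), MEC1_192 (idelalisib), EHEB_280 (ibrutinib), and EHEB_287 and EHEB_288 (idelalisib). No JVM2 library held a count of HRK, and a count of 0 allows up to 3.

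BCL2L11, a member known for its part in death after kinase inhibition, showed the widest spread between libraries of a group. Its pooled SD was 0.729 on the log2 scale with 0.5 CPM added, above 98.5% of 20531 genes, whose median was 0.191. In MEC1 it held 14.1, 18.5 and 16.5 CPM with DMSO and 29, 25.7 and 16.9 with fludarabine. With ibrutinib MEC1 held 18.4, 17.8 and 17 CPM, close together, and with idelalisib 49.1, 6.34 and 19.5, a 7.74-fold range within 1 group. In JVM2 it held 19.4, 17.7 and 7.25 CPM with DMSO, 31.3, 10.5 and 17.6 with fludarabine and 7.55, 7.46 and 19.6 with ibrutinib, which all overlapped. The idelalisib libraries of JVM2, at 31.9, 29.7 and 28.8 CPM, all lay above DMSO. In EHEB the DMSO libraries held 53.2, 31.3 and 137 CPM and the fludarabine libraries 40.1, 39.2 and 43.5. With ibrutinib EHEB held 94.4, 44.4 and 58.3 CPM and with idelalisib 19.4, 75.2 and 35, again across the DMSO range.

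**Figure D3:**
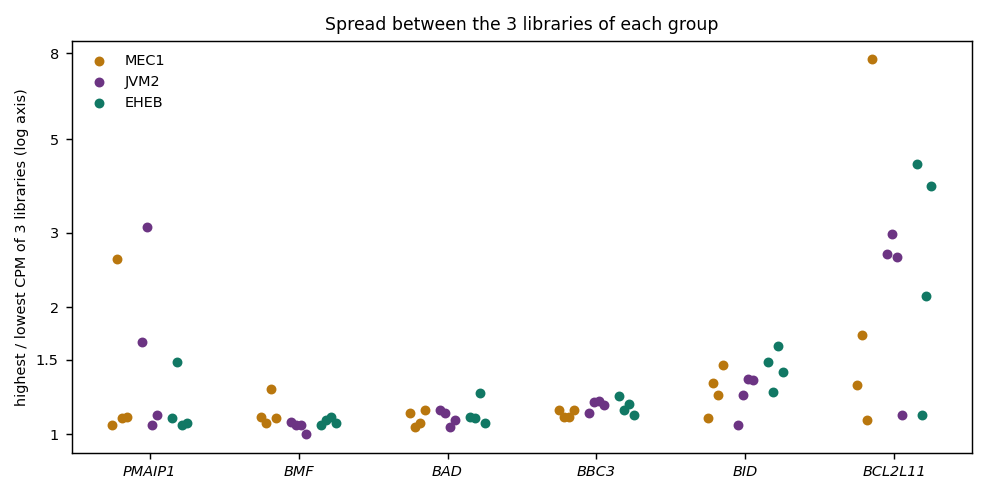
Ratio of the highest to the lowest CPM among the 3 libraries of each group (log axis), 4 groups per line, for 6 members. BBC3, BMF and BAD stay at or under 1.28, whereas BCL2L11 reaches 7.74 and PMAIP1 3.1.

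BCL2L11 was called in 0 of 9 comparisons with DMSO by edgeR, and also in 0 by DESeq2 and limma-voom. No comparison had an unadjusted p under 0.05, and differences of −0.84 to 1.03 came with SEs of 0.484 to 0.552. The difference nearest to a call was idelalisib in JVM2 (1.03, SE 0.486, adjusted p = 0.112), which was 1.03 with an adjusted p of 0.0471 when only those 6 libraries were fitted. Against ibrutinib in the same line the difference was 1.39 (SE 0.491, adjusted p = 0.0754), without overlap, and DESeq2 (adjusted p = 0.0465) and limma-voom (adjusted p = 0.041) called it. Idelalisib in MEC1 gave 0.67 (adjusted p = 0.288), and 1.13 without MEC1_191, the lowest (adjusted p = 0.0161). The antisense MIR4435-2HG had 62 to 131 counts in the EHEB libraries, 14 to 60 in JVM2 and 240 to 465 in MEC1. In the DMSO library EHEB_135, where BCL2L11 had 6076 counts against 2110 and 1275 in the other two, MIR4435-2HG had 102. The study lists BCL2L11 among NF-κB target genes co-expressed with UGT2B17 in treated MEC1 and JVM2 cells, which is no independent evidence on its direction here.

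BID, which death receptors activate through CASP8, did not pass the test in any comparison with DMSO when all libraries were used. In MEC1 it held 37.8, 35.2 and 38.3 CPM with DMSO and 24.8 to 44.1 with the drugs. In JVM2 it held 21.1, 20.8 and 20.1 CPM with DMSO and 18.1 to 27.3 with the drugs, and in EHEB 20.2, 13.6 and 19 with DMSO and 12.7 to 25.6 with the drugs. Treated libraries overlapped DMSO in every comparison. Its differences ran from −0.22 to 0.26 with SEs of 0.135 to 0.204, edgeR, DESeq2 and limma-voom each called 0 of 9, and no unadjusted p was under 0.05. Without the ibrutinib library JVM2_233 the difference with ibrutinib in JVM2 went from 0.26 to 0.40 (adjusted p = 0.0432).

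Counts over the members are given beside the share of all genes called in the same comparison. With fludarabine 2 of 7 members tested rose and 3 fell in MEC1 (43.9% of all genes called in either direction), 2 rose and 1 fell in JVM2 (47.2%), and 2 rose and 1 fell in EHEB (37.5%). With ibrutinib 1 rose and 3 fell in MEC1 (47.6%), 1 rose and 1 fell in JVM2 (29.4%), and 1 rose in EHEB (19.7%). With idelalisib 1 rose and 2 fell in MEC1 (55%), 1 rose and 1 fell in JVM2 (44.2%), and 2 rose in EHEB (33.3%). The rises with fludarabine in JVM2 include BIK, which passed the filter there only through its fludarabine libraries. The 3 drugs of a line share its DMSO libraries. Median changes over the 7 members were between −0.26 and 0.06, beside −0.0014 to 0.08 over all genes, and the medians of 0 with both inhibitors in JVM2 are that of BIK, which had no counts there.

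The tests of a difference between lines called 3 of 7 members for fludarabine in MEC1 against JVM2 (25.2% of all genes), 3 in MEC1 against EHEB (29.4%) and 3 in JVM2 against EHEB (22.2%). For ibrutinib they called 2 (25.9%), 3 (26.4%) and 1 (12%) in the same order, and for idelalisib 3 (35%), 2 (38%) and 2 (21.3%). BBC3 and BMF made up 16 of these 22 calls. The 22 include the fludarabine calls of BIK against JVM2, whose DMSO libraries had no counts of it, and no difference is read from those.

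Across the 36 libraries, pairs of members were compared on log2 CPM after each line's mean was taken out. Pearson r ran from −0.598 for PMAIP1 and BMF to 0.405 for BBC3 and BIK. It was 0.372 for BBC3 and PMAIP1, −0.208 for BBC3 and BMF and −0.493 for BIK and BAD. These are descriptions over libraries that share lines and treatments. The genes most like BBC3 by this measure among 11281 were SARS, the older symbol of a seryl-tRNA synthetase gene (r = 0.956), and ITPKC (0.932). TTLL7 (0.947) and MAVS (0.935) were most like BMF, IL1B (0.876) and AGK (0.87) most like BIK, and HIGD2A (0.869) and SND1 (0.835) most like BAD. The closest genes were less alike for PMAIP1 (TMBIM1, 0.721, and CYSTM1, 0.719), BID (PSMD2, 0.579, and BOP1, 0.577) and BCL2L11 (CCDC159, 0.547, and ZNF35, 0.525).

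The other targets of p53 rose with fludarabine in larger numbers in JVM2 and EHEB than in MEC1. By the test of the difference of each gene, the effect in MEC1 was lower than in JVM2 for 11 of 18 and higher for 1, and lower than in EHEB for 11 and higher for 2, where 11.7% and 12.4% of all genes were lower. Of 18 other p53 targets, all tested, 9 rose and 2 fell in MEC1 with a median of 0.18, 15 rose and 1 fell in JVM2 with a median of 1.01, and 13 rose in EHEB with a median of 1.11. Over all genes the medians were 0.06, 0.06 and 0.02, with 21.2%, 23.9% and 18.4% higher and 22.7%, 23.3% and 19.2% lower. In MEC1 both BBC3 and PMAIP1 lay below the lowest gene of this list, as the plot of the list shows. MDM2, which targets p53 for degradation, held 266, 260 and 240 CPM with DMSO and 296, 272 and 278 with fludarabine in MEC1 (0.11, SE 0.0931, adjusted p = 0.356). It rose by 1.89 in JVM2 (SE 0.0987) and 1.61 in EHEB (SE 0.124), and the effect in MEC1 was lower than in either (−1.75 and −1.43). CDKN1A, which stops the cell cycle, rose in MEC1 (0.61, SE 0.0779) and JVM2 (0.88, SE 0.303, adjusted p = 0.0341), and in EHEB gave 1.10 (SE 0.456, adjusted p = 0.082). In JVM2 and EHEB 1 fludarabine library each, at 399.7 and 574.5 CPM, lay below all DMSO libraries of its line.

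**Figure D4:**
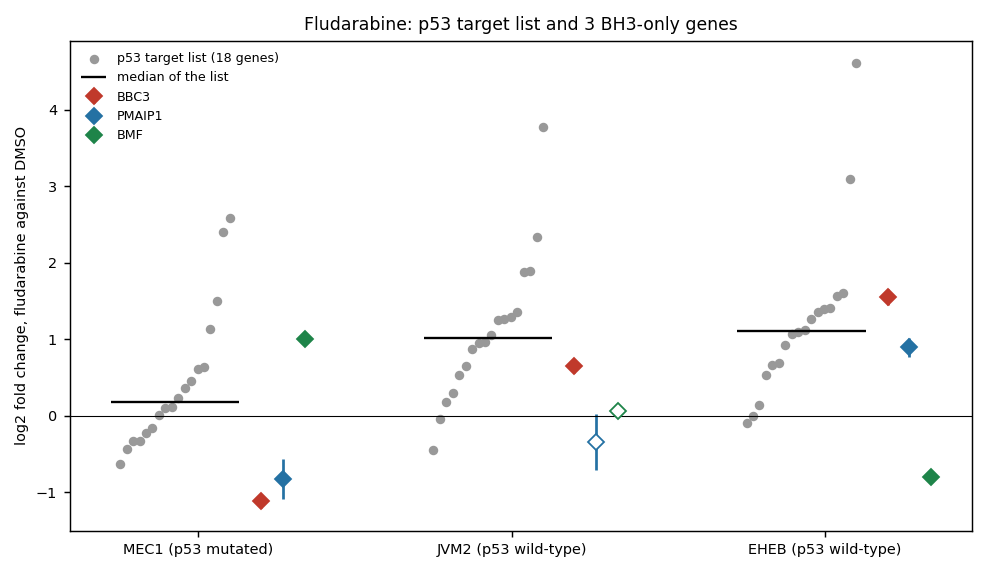
Log2 fold change with fludarabine of 18 p53 targets (grey, median as a line) and of BBC3, PMAIP1 and BMF (diamonds, bars 1 SE, open where the adjusted p is 0.05 or more) in each line. The list's median is lowest in MEC1, at 0.18, beside 1.01 in JVM2 and 1.11 in EHEB. BBC3 is below the list in MEC1 and within it in JVM2 and EHEB.

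The named p53 targets that rose with fludarabine in all 3 lines were the stress cytokine GDF15 (2.40, 2.34 and 4.61 in MEC1, JVM2 and EHEB), the antioxidant gene SESN1 (1.49, 1.88 and 1.35) and PHLDA3, a brake on AKT (2.58, 1.25 and 1.40). GDF15 and PHLDA3 were scarce in MEC1, at averages of −0.796 and −0.414 log2 CPM over its libraries. Their rises there had SEs of 0.621 (adjusted p = 0.00869) and 0.759 (adjusted p = 0.0169). In DMSO-treated MEC1 cells 17 of the 18 were lower than in JVM2 and 16 were lower than in EHEB, where 33.7% and 35.8% of all genes were. With ibrutinib 5 of the list rose and 7 fell in MEC1, 11 fell in JVM2, and 2 rose and 6 fell in EHEB. With idelalisib 5 rose and 9 fell, 1 rose and 12 fell, and 1 rose and 9 fell. Of all genes 23.7% rose and 23.9% fell with ibrutinib in MEC1, 14.5% and 15% in JVM2 and 8.5% and 11.2% in EHEB. With idelalisib 27.6% rose and 27.4% fell in MEC1, 21.6% and 22.6% in JVM2 and 15.1% and 18.2% in EHEB. The cyclin gene CCNG1 fell with both inhibitors in all lines, by 0.34 to 0.86. With idelalisib GDF15 fell by 2.05, 3.89 and 1.12 in MEC1, JVM2 and EHEB, and FDXR, which passes electrons to mitochondrial P450 enzymes, fell by 0.78, 0.54 and 0.81. The fall of GDF15 in MEC1 had an SE of 0.743 (adjusted p = 0.0354).

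Among the survival proteins that BH3-only proteins occupy, BCL2 fell and BCL2L1, which encodes BCL-XL, rose with fludarabine in all 3 lines. BCL2 fell by 0.88 in MEC1 (SE 0.0596), 0.43 in JVM2 (SE 0.0365) and 0.29 in EHEB (SE 0.0407), and the fall in MEC1 was larger than in either other line (adjusted p = 2.32e-05 and 2.42e-06). BCL2L1 rose by 0.54, 1.08 and 0.84. Of the 6 survival genes 2 rose and 3 fell in MEC1, 2 rose and 2 fell of 5 tested in JVM2, and 2 rose and 2 fell in EHEB, where 43.9%, 47.2% and 37.5% of all genes were called. With ibrutinib these shares were 47.6%, 29.4% and 19.7% and with idelalisib 55%, 44.2% and 33.3%, and they are the background of the effector, handler, mitochondrial and BH3-motif counts as well. With ibrutinib 3 rose and 1 fell in MEC1 and none was called in the other lines. With idelalisib 2 rose and 1 fell, 3 rose and 1 fell, and 1 rose and 1 fell.

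Among the effectors BAX rose with fludarabine by 0.47 in MEC1 (SE 0.106), 0.59 in JVM2 (SE 0.0545) and 0.84 in EHEB (SE 0.088). BAK1 was the only other effector tested, and both rose in JVM2 and EHEB. With ibrutinib 1 effector rose and 1 fell in MEC1 and none was called in the other lines, and with idelalisib 1 fell in MEC1 and 2 in JVM2. Of the 3 genes whose proteins handle BH3-only proteins (DYNLL1, DYNLL2 and CASP8), 2 rose with fludarabine in each line. With ibrutinib 1 rose and 1 fell in MEC1, 1 rose in JVM2 and 1 fell in EHEB, and with idelalisib 1 rose and 1 fell in MEC1 and 2 fell in EHEB. Of 7 genes of the later mitochondrial steps, 2 fell with fludarabine in MEC1, 3 rose and 1 fell in JVM2, and 2 rose in EHEB. With ibrutinib 1 rose in MEC1, 1 rose in JVM2 and 2 fell in EHEB, and with idelalisib 1 rose, 1 fell and 3 fell.

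Several transcription factors are known to act on BH3-only genes. Of 7 such genes in MEC1, 3 fell with fludarabine and 6 with each kinase inhibitor, beside 22.7% of all genes that fell under fludarabine, 23.9% under ibrutinib and 27.4% under idelalisib. In JVM2, 1 rose and 4 fell with fludarabine, 1 rose and 2 fell with ibrutinib and 3 fell with idelalisib. Of all genes there, 23.9% rose and 23.3% fell with fludarabine, 14.5% and 15% with ibrutinib, and 21.6% and 22.6% with idelalisib. In EHEB the counts were 2 and 1, 1 and 1, and 1 and 2, beside 18.4% and 19.2%, 8.5% and 11.2%, and 15.1% and 18.2% of all genes. E2F1, a driver of S phase, fell with idelalisib in all lines, by 1.62, 0.73 and 1.08 in MEC1, JVM2 and EHEB.

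Of 6 other genes whose proteins carry a BH3-like motif, 3 rose and 2 fell with fludarabine in MEC1, 1 rose and 4 fell in JVM2, and 1 rose and 2 fell in EHEB. BCL2L14 rose in all 3 lines, from 1.06, 1.73 and 2.08 CPM to 22.8, 21.7 and 22.4 in JVM2 (3.78, SE 0.334), and by 2.03 in MEC1 cells and 1.21 in EHEB cells. BNIP3 and BNIP3L, mitophagy receptors, fell in all 3 lines, BNIP3 by 0.80, 1.52 and 1.53 and BNIP3L by 1.03, 0.86 and 1.81. With ibrutinib 1 of the 6 rose and 1 fell in MEC1, 1 fell in JVM2 and 2 fell in EHEB. With idelalisib 2 rose and 1 fell, 1 rose and 2 fell, and 2 fell.

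Markers of the B cell itself moved with treatment beside these genes. Of the 6, 1 rose and 4 fell with fludarabine in MEC1, 5 fell in JVM2 and 6 fell in EHEB. Of all genes 43.9%, 47.2% and 37.5% were called there. The summed level of the markers went from 958 to 1020 CPM with DMSO to 869 to 881 in MEC1. It went from 1230 to 1240 CPM to 640 to 708 in JVM2 and from 1600 to 1650 CPM to 895 to 997 in EHEB. In MEC1 6 markers rose with ibrutinib and 4 with idelalisib, where 47.6% and 55% of all genes were called. With ibrutinib and idelalisib the summed level was 1510 to 1750 and 1560 to 1620 CPM in MEC1. It was 1380 to 1430 and 1390 to 1430 CPM in JVM2, and 1560 to 1730 and 1580 to 1650 in EHEB. CD22, PAX5 and CD79B fell with fludarabine in all lines, by 0.29 to 1.42. NKG7, an NK-cell marker at or under 6.33 CPM, fell with both inhibitors in all lines. Summed T-cell markers stayed at or under 16.2 CPM, myeloid markers at or under 5.88 and NK-cell markers at or under 25.5 in every library. With fludarabine in MEC1 the myeloid sum went from 0.426 to 0.893 CPM with DMSO to 4.35 to 5.88, where CSF1R rose by 2.74 (SE 0.36), and the NK-cell sum from 11.7 to 12.9 CPM to 18.3 to 20.3, with both markers tested called higher. In JVM2 the NK-cell sum went from 9.02 to 11.1 CPM with DMSO to 1.18 to 2.76 with fludarabine, with both markers tested called lower. The part of these markers in the changes of the BH3-only genes was not tested, and in bulk RNA a change in the cells counted and a change per cell cannot be told apart.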

How the data were processed

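RNA was sequenced from 36 libraries of MEC1, JVM2 and EHEB. The authors trimmed reads (Trimmomatic), aligned them to GRCh38 (HISAT2) and deposited expected counts per gene symbol from StringTie. The submitters' processing notes name HISAT2 2.1, StringTie 1.3.4 and edgeR 3.22.5. Estimated counts can move reads between overlapping genes. An entry with a blank symbol (0.00384% of counts) was left out. Groups came from the sample titles.

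The libraries of a line were fitted together in edgeR 4.0.16 (R 4.3.3) with TMM normalisation, filterByExpr (at least 10 counts, 15 over the libraries) and the F-test of the quasi-likelihood fit. Its p-values were adjusted by Benjamini-Hochberg over 17516, 17508 and 17748 genes in MEC1, JVM2 and EHEB. The SE is the log2 fold change divided by the square root of F. Differences of a drug effect between lines were interaction contrasts over 18 libraries, and DMSO levels were compared over 9. CPM values use TMM factors over 36 libraries. On simulated counts with 200 of 17516 genes changed by 1.5 (log2) between fludarabine and DMSO in MEC1, edgeR recovered 132 with 7 false calls.

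The members, gene lists and tests were chosen with earlier results of these data known. The lists are BCL2 survival proteins, BAX-type effectors, regulators and handlers of BH3-only proteins, mitochondrial death steps, other proteins with a BH3 motif, p53 targets and markers of B, T, myeloid and NK cells. Named are all members, CDKN1A and MDM2, and, per list and drug, at most 3 genes called alike in all 3 lines, by their smallest change. Some genes this rule selects are not reported here. Alternatives were library size scaling, DESeq2 1.42.0, limma-voom (limma 3.58.1), no filter, a filter at a mean of 5 CPM, all 36 libraries in a single fit, only the 6 libraries compared, each library left out, and the exon union as length. Genome positions come from GENCODE release 44 and promoters from RefSeq.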

Additional observations from a re-analysis of the deposited data

Results flagged for a closer look

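The test of the difference of a drug effect between lines called 5 members, including BIK, whose calls rest on a group without counts. Differences are log2 values, first line minus second.

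BBC3 differed in all 9 tests. For fludarabine the differences were −1.73 in MEC1 against JVM2, −2.60 in MEC1 against EHEB and −0.87 in JVM2 against EHEB. For ibrutinib they were −1.05, −1.63 and −0.58, and for idelalisib −1.40, −2.01 and −0.61, in the same order.

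BMF differed in 7 of 9 tests. For fludarabine the differences were 0.97, 1.87 and 0.90. For ibrutinib MEC1 differed from JVM2 by −0.996 and from EHEB by −1.02, and for idelalisib by −1.36 and −1.52.

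PMAIP1 differed with fludarabine in MEC1 against EHEB (−1.65), and with idelalisib in MEC1 against JVM2 (0.84) and in JVM2 against EHEB (−0.60). BAD differed with ibrutinib in MEC1 against EHEB (−0.37). Each of these calls of PMAIP1 and BAD was lost under another setting or with certain libraries left out, as given above for each gene. The BBC3 call for ibrutinib in JVM2 against EHEB was also lost without JVM2_234. BIK was called with fludarabine in MEC1 against JVM2 (adjusted p = 0.00583) and in JVM2 against EHEB (adjusted p = 0.00309). DMSO-treated JVM2 cells had no counts of it, so no size is given and no difference between lines is read from these calls. Mean levels of BIK went from 0.354 to 1.44 CPM in MEC1, 0.489 to 1.38 in EHEB and 0 to 0.418 in JVM2. In none of the tests of these members can the line be told apart from how long the cells were exposed.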

How the results depend on the processing

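No paired analysis was possible because every library carries a number of its own and none is shared between groups. The fits of a member counted here leave out BIK in every comparison that involves JVM2, where groups had no counts of it. Among the rest, no called member changed direction under any alternative. Over 1002 fits of a member in a comparison under the alternatives other than a left-out library, 959 kept their side of the threshold, 15 lost a call and 28 gained one. With a library left out, 1225 of 1278 kept it, 38 lost a call and 15 gained one. The calls gained include those of BIK without EHEB_287, which leaves the idelalisib group of EHEB without counts of it.

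The number of members called moved by over 1.5 times as follows. Under library size scaling it went from 5 to 3 for fludarabine in MEC1, from 2 to 1 for idelalisib in JVM2 and from 0 to 1 between the inhibitors in MEC1. With only the 6 libraries it went from 2 to 4 for idelalisib in JVM2, from 1 to 2 for ibrutinib in EHEB, from 0 to 1 between the inhibitors in MEC1 and from 1 to 2 in JVM2. Between the inhibitors in JVM2, DESeq2, limma-voom and the stricter filter each gave 2 in place of 1, and in EHEB the stricter filter and the single fit of 36 libraries gave 2 in place of 1. The single fit also gave 5 in place of 3 for the fludarabine effect and 1 in place of 2 for the idelalisib effect in JVM2 against EHEB. The stricter filter removed BIK, and the cause of the other moves was not tested. With a library left out, the counts ranged from 2 to 4 for ibrutinib in MEC1, 1 to 2 for idelalisib in JVM2 and in EHEB, 1 to 2 between the inhibitors in JVM2, 0 to 2 for the ibrutinib effect and 1 to 2 for the idelalisib effect in JVM2 against EHEB.

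Library size scaling moved the median of all genes with fludarabine by 0.249 (MEC1), 0.199 (JVM2) and 0.106 (EHEB) and by −0.169 between the inhibitors in MEC1. The share of calls that were higher went from 48.4% to 74.1%, 50.6% to 69.1%, 48.9% to 61.8% and 39.1% to 11.3% in these comparisons. It went from 49.1% to 62.2% with ibrutinib and 48.8% to 59.5% with idelalisib in JVM2, and from 43.1% to 65.4% and 45.3% to 59.6% in EHEB. With the exon union as length PMAIP1 still had the highest level in each line. HRK had too few counts to be tested and BIK had at most 61 in a library, and no alternative changed the depth.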
